A study of Mus musculus with 6 samples.

Results

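Prostaglandins are short-lived lipid signals made in the ovarian follicle, and the data here describe 10 genes that make them, sense them or break them down in mouse granulosa cells (GCs), the somatic cells around the oocyte. The 10 genes were chosen by symbol, all 10 had values among the 16300 genes of the expression table, and all 10 passed the filter on low values. RNA-seq was run on 6 libraries of primary GC cultures from wild type C57BL/6J mice aged 8 to 9 weeks, 3 from control cells and 3 from cells given 25 nM dihydrotestosterone (DHT), an androgen that cannot be aromatized to estrogen, for 24 h. Per the methods of the study, GCs were taken on the day of estrus, the cultures were starved of serum before treatment, and each library was made from the pooled cells of several mice, with 3 such pools per treatment. A replicate is therefore a pool and not an animal, and the p-values rest on the spread between pools. In the test of fold changes, the spread of each gene is drawn towards that of genes with a like level. The labels do not say whether a control and a DHT library share their mice.

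Prostaglandin synthesis starts when a phospholipase frees arachidonic acid from the membrane. The cyclooxygenases PTGS1 and PTGS2 turn it into prostaglandin H2, and terminal synthases turn that into prostaglandin D2 (PTGDS), E2 (PTGES, PTGES2, PTGES3), prostacyclin (PTGIS) and others. Prostaglandin E2 acts through receptors such as PTGER2 and PTGER4, prostaglandin F2α acts through PTGFR, and HPGD starts the breakdown of prostaglandins inside the cell. In the ovary, PTGS2 is known for its rise in GCs after the luteinizing hormone surge, PTGER2 for its part in cumulus expansion, and PTGFR for the regression of the corpus luteum.

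DHT-treated GCs had more *Ptgds*, *Ptgfr* and *Ptger2* transcript and less *Ptges* transcript than control GCs. By the fit on the log2 scale, *Ptgds* rose to 4.18 times its control level and *Ptger2* to 1.32 times, while *Ptges* fell to 0.80 times. For *Ptgfr* the fitted fold was 3.88 and the ratio of the group means 2.92, and its control libraries were far apart. The inducible cyclooxygenase gene *Ptgs2* had a log2 change of -0.02 with a 95% interval of -0.30 to 0.26. Of the 10 genes, 3 rose and 1 fell at an adjusted p of at most 0.05, where 11.2% of the 16292 genes tested did so in either direction, 6.52% upward and 4.66% downward. Both thresholds of the study, this adjusted p and an absolute log2 fold change above 1, were passed by *Ptgds* and *Ptgfr*, 2 of the 10, against 1.31% of all genes tested. The first count was 2 to 4 and the second 1 to 2 when a library was left out, and without the intensity trend they were 2 and 1. By quantile normalization they were 3 and 1, and the *Ptgfr* call was lost in each fit that gave 1. The control and DHT libraries did not overlap in 4 of the 10 genes, against 30.6% of all genes tested. The median log2 change was 0.09 over the 10 genes and -0.01 over all genes tested. Log2 fold changes and adjusted p-values are those of limma with Benjamini-Hochberg adjustment over all genes tested, on log2(normalized count + 1), a scale that understates the change of genes with low counts. A normalized count is the number of reads of a gene divided by the size factor of the library.

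**Figure D1:**
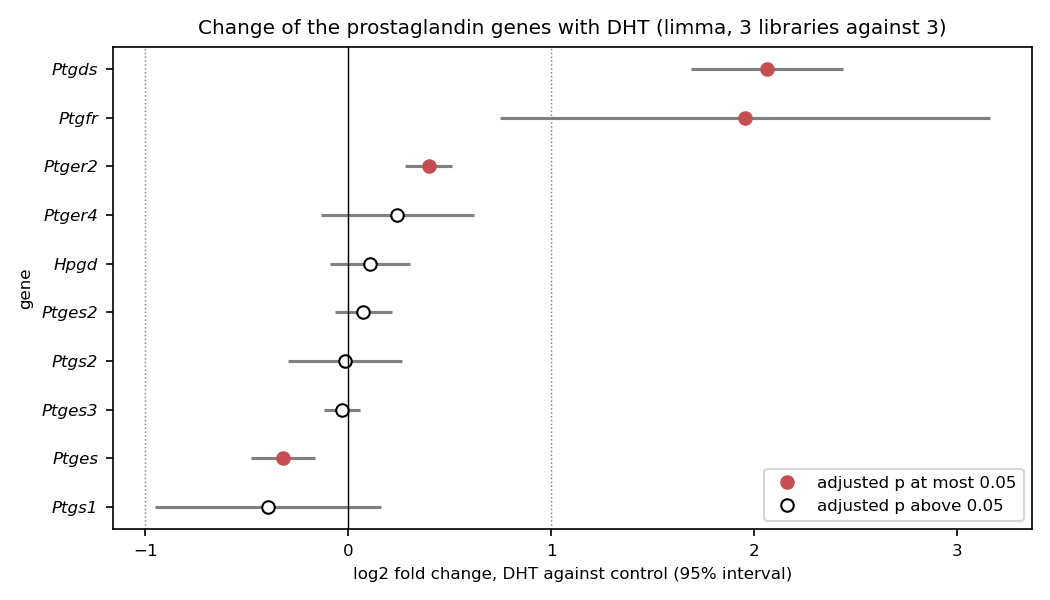
Log2 fold change of each of the 10 genes between DHT and control GCs (horizontal axis, above 0 is higher in DHT) with its 95% interval as a line. Filled points passed an adjusted p of at most 0.05, and dotted lines mark a log2 change of 1 in each direction; *Ptgds* at 2.06 and *Ptgfr* at 1.95 lie beyond it, and the interval of *Ptgfr* is the widest of the 10.

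The promoters of the 4 genes that passed the test are shown first, since DHT acts through the androgen receptor, which binds DNA at elements that can be searched for there. Each sequence is the 300 bases from 250 before to 50 after the RefSeq start of the gene in GRCm38.p6, on the strand of the gene. Capitals mark AGAACA or its reverse complement TGTTCT, the hexamer that makes up each side of an androgen response element.
*Ptgds*, chr2:25469700-25469999, minus strand: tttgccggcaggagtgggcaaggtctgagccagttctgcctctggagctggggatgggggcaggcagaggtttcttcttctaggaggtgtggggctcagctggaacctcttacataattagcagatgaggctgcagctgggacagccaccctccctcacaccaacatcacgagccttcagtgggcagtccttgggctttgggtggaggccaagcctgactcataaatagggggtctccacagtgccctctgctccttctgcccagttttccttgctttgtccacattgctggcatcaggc
*Ptgfr*, chr3:151837479-151837778, minus strand: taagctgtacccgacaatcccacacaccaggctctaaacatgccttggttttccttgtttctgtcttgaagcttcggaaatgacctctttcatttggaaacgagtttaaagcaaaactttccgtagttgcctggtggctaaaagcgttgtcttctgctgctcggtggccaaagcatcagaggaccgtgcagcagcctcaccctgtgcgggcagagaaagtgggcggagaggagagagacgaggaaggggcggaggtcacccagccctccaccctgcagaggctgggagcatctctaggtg
*Ptger2*, chr14:44987861-44988160, plus strand: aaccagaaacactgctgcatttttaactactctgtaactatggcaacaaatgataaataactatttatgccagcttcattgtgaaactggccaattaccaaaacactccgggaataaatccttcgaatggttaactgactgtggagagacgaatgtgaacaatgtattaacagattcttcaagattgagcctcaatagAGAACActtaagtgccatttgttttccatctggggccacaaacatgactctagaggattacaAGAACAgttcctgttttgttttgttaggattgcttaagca
*Ptges*, chr2:30903248-30903547, minus strand: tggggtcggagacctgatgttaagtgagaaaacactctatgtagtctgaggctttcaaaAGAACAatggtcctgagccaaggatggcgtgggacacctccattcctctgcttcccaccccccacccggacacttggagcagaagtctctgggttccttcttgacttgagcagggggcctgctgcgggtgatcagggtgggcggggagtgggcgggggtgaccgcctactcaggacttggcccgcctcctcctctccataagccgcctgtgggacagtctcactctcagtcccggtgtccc
The *Ptger2* window held the hexamer at 2 places, at positions -52 to -47 and 11 to 16, counted from 1 at the start with no 0. The *Ptges* window held it at 1 place, positions -191 to -186. These letters were not in the windows of *Ptgds* and *Ptgfr*. Each window covers 300 bases at 1 RefSeq start, and sequence further out or at other starts was not searched. The *Ptges* window lies inside the annotated span of the gene, which begins at 30929863 on the minus strand. Of the 10 promoters, 3 held the hexamer on either strand (*Ptger2*, *Ptges* and *Ptgs1*), and 19.0% of all 32851 promoter windows did. The full palindrome, AGAACA and TGTTCT with any 3 bases between them, was in 0 of the 10 windows and in 3 of the 32851.

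*Ptgds* (ENSMUSG00000015090; chromosome 2 of GRCm38, 25466709 to 25470046, minus strand) encodes lipocalin-type prostaglandin D synthase, a secreted enzyme that also carries small lipids. Its normalized counts were 357, 394 and 277 in control replicates 1, 2 and 3 and 1120.4, 1491 and 1718 in the DHT replicates. The 3 DHT libraries were all above the 3 control libraries, and the lowest DHT value was well above the highest control value. The mean rose from 343 ± 59.8 to 1443 ± 302 (SD, n = 3), with a log2 change of 2.06, SE 0.17 (adjusted p = 0.00015, limma). It ranked 16th from the top of the 16292 genes by log2 fold change. Its exons shared no base with another annotated gene.

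The genes with the most similar pattern to *Ptgds* were looked for among 12704 others with a mean of at least 50, by the Euclidean distance between centred log2 values over the 6 libraries. *Pgm5*, *Tmem72* and *Pacsin1* were the closest, at distances of 0.36, 0.43 and 0.50. *Pgm5* had 135, 195 and 120.4 normalized counts in the control libraries and 466, 547 and 673 in the DHT libraries. All 3 genes had log2 fold changes between 1.89 and 1.95, near that of *Ptgds*, which a choice by likeness of pattern favours.

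**Figure D2:**
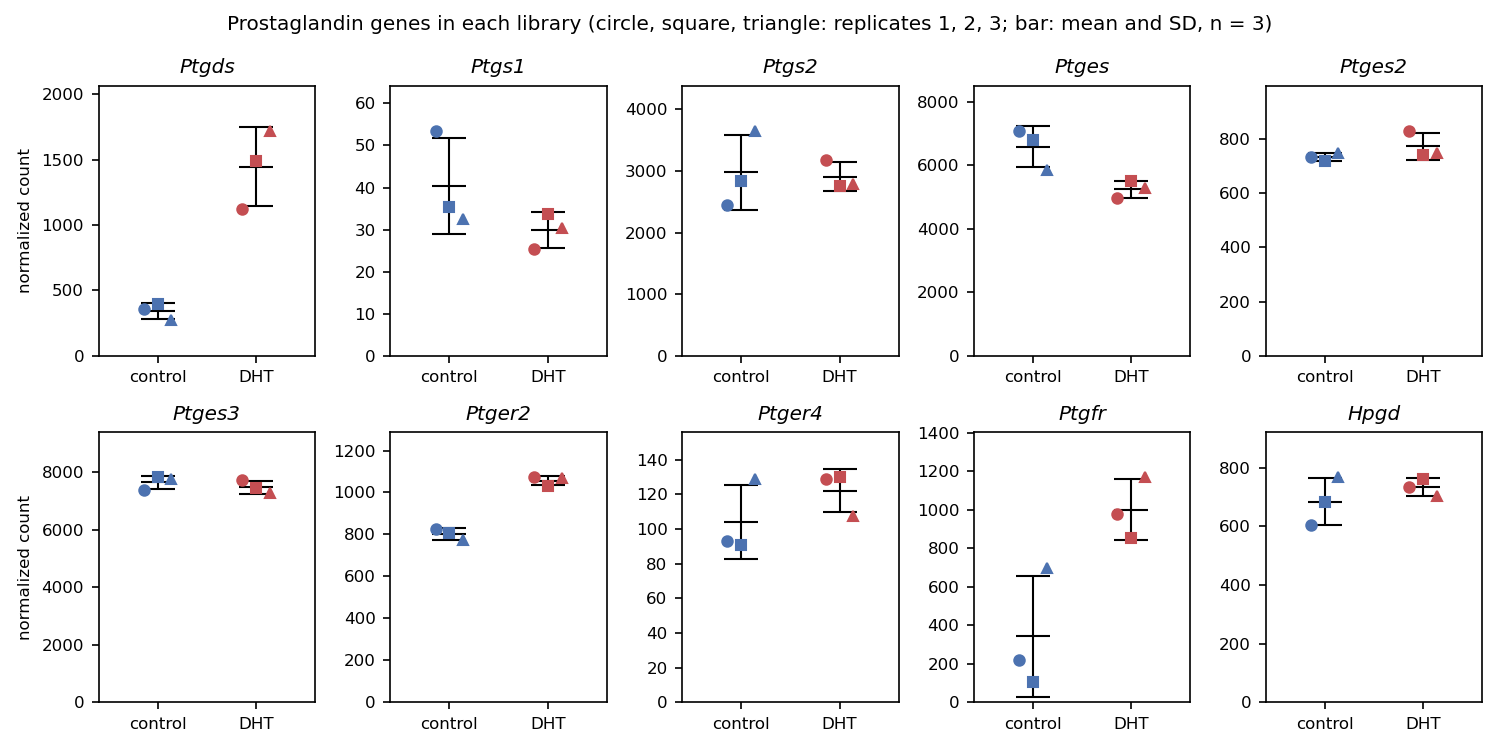
Normalized count (vertical axis, from 0) of each of the 10 genes in the 3 control and 3 DHT libraries, with replicates 1, 2 and 3 as circle, square and triangle, and bars for the mean and SD. The groups do not overlap for *Ptgds*, *Ptges*, *Ptger2* and *Ptgfr*, and control replicate 3 (triangle) is the highest control library for *Ptgs2*, *Ptges2*, *Ptger4*, *Ptgfr* and *Hpgd*.

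The smooth muscle genes *Acta2* and *Myh11* rose in the same libraries as *Ptgds*. Of 12 markers of theca and stroma, 9 had values, and their summed normalized counts ranged from 6567 to 9098 in control and from 10233 to 12154 in DHT. The separation of these sums rested on *Acta2*: the other 8 markers summed to 2274 to 2673 in control and 2016 to 2855 in DHT, which overlap, and 5 of the 9 markers had a log2 change below 0, among them *Dcn* with -1.05 (adjusted p = 0.10, limma). *Acta2* had a log2 change of 0.76 and *Myh11* one of 0.67, with adjusted p-values of 0.0056 and 0.013 by limma, and the other 7 markers did not pass the test. These 2 are 22.2% of the 9 markers, beside 11.2% of all genes tested. Both calls were lost without the intensity trend (adjusted p = 0.066 for *Acta2* and 0.072 for *Myh11*, limma), and that of *Myh11* also without DHT replicate 2 or 3 (0.059 and 0.063). The most abundant of the list per kb of exon were *Acta2* and *Col1a1*, and *Col1a1* had a log2 change of -0.13 (adjusted p = 0.55, limma). *Cyp17a1*, *Insl3* and *Rgs5* were not analysed here. The part of these transcripts in the rise of *Ptgds* was not tested. In bulk RNA, more cells of a type and more RNA per cell cannot be told apart.

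The cyclooxygenases were unequal in level. *Ptgs2* (ENSMUSG00000032487; chromosome 1, 150100031 to 150108227, plus strand) encodes the inducible enzyme and *Ptgs1* (ENSMUSG00000047250; chromosome 2, 36230426 to 36252272, plus strand) the constitutive one. Per kb of exon, *Ptgs2* was at 651 ± 133 normalized counts in control cells and 635 ± 50.4 after DHT, and *Ptgs1* had 10.4 ± 2.93 and 7.70 ± 1.09 (SD, n = 3). *Ptgs2* made up 97.5% to 99.0% of the cyclooxygenase transcripts per kb in the control group and 98.6% to 99.1% in the DHT libraries. The difference of 0.45 percentage points was within the spread between libraries (exact permutation test, two-sided, p = 0.4, where the smallest p that 3 against 3 allow is 0.1).

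The normalized counts of *Ptgs2* were 2455, 2835 and 3651 in control replicates 1, 2 and 3 and 3175, 2763 and 2789 in the DHT replicates. The control libraries spanned the whole range of the DHT libraries, with control replicate 3 the highest of the 6 and control replicate 1 the lowest. The adjusted p of *Ptgs2* was 0.95 by limma. Without control replicate 3 its log2 change was 0.14 in place of -0.02 (adjusted p = 0.30, limma). *Ptgs1* had 53.4, 35.3 and 32.4 normalized counts in control cells and 25.4, 33.8 and 30.5 after DHT, with overlapping groups, and its exons share 148 bases with *Gm43621* on the other strand. Its log2 change was -0.40 with a 95% interval of -0.95 to 0.16 (adjusted p = 0.36, limma), and was -0.18 without control replicate 1. These values rested on 26 to 54 reads per library.

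The control libraries also differed in immediate-early genes, which cells switch on within minutes of a stimulus, but not in 1 direction. Of 14 such genes control replicate 3 was the highest control library in 8, *Nr4a1* and *Nr4a3* among them. It was the lowest in 4, the abundant *Fos*, *Fosb*, *Jun* and *Egr1*. Control replicate 1 was the highest in 2 and the lowest in 6, and control replicate 2 the highest in 4 and the lowest in 4. With 3 libraries, 1 is always the highest and 1 the lowest. *Fos* had 8644, 10971 and 5990.1 normalized counts in control replicates 1, 2 and 3. *Nr4a1*, an orphan nuclear receptor gene, had 1950.2 and 2546 normalized counts in control replicates 1 and 2, 10385 in control replicate 3, and 9911, 7263 and 6431 in the DHT replicates. *Nr4a3* had 24.7, 19.5 and 427 in control and 415, 212 and 204 in DHT. Neither gene passed the test, with log2 fold changes of 1.06 and 2.11 and adjusted p-values of 0.24 and 0.22 by limma. Of 14 immediate-early genes, 0 rose and 2 fell by limma, 14.3% of them and so near the 11.2% of all genes tested, with 4.66% downward. These were *Egr1* with a log2 change of -0.34 and *Ier2* with -0.16, and the median over the 14 was 0.27. The *Egr1* call was lost without the intensity trend (adjusted p = 0.051, limma). The call of *Ier2* held only without control replicate 2 among the fits with a library left out, and its adjusted p reached 0.18 by limma. *Fos*, with *Ier3* the most abundant of them per kb, had an adjusted p of 0.24 by limma. The part of these genes in the *Ptgs2* level of control replicate 3 was not tested.

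The 3 genes with the pattern closest to that of *Ptgs2* were *Trim59*, *Lgalsl* and *Clca3a1*, at distances of 0.10, 0.10 and 0.11. All 3 were highest in control replicate 3 and lowest in control replicate 1, as *Ptgs2* was, which a choice by likeness of pattern favours. *Clca3a1* had 5598, 6768 and 9119 normalized counts in control cells and 7883, 6701 and 6720.1 after DHT. The search covered all genes with a mean of at least 50, and the distances are a description over 6 libraries.

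The *Ptgs2* promoter is known to take up the cyclic AMP and E-box signals that follow luteinizing hormone. Its window is shown with TGACG (reverse complement CGTCA, the core of a cyclic AMP response element) and the E-box CACGTG in capitals. The 2 matches share 2 bases, with CGTCA at positions 14 to 18 and CACGTG at positions 17 to 22 from the RefSeq start.
*Ptgs2*, chr1:150099781-150100080, plus strand: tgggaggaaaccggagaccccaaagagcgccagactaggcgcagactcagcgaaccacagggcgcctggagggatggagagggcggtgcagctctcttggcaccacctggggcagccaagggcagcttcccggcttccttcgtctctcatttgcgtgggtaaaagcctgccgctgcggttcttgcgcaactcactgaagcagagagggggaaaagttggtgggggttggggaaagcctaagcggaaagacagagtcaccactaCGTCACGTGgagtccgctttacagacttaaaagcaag
Over the 10 promoters, TGACG was in the windows of *Ptgs2* and *Ptges3* and CACGTG in those of *Ptgs2* and *Ptges2*, and 20.8% and 7.15% of all windows held them on either strand.

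Of 12 genes that luteinizing hormone is known to induce around ovulation, 10 had values, 3 rose and 2 fell, 50.0% of them beside 11.2% of all genes tested. This list was chosen with earlier results of these data known, so its share is a description and not a test. *Has2*, the hyaluronan synthase of the expanding cumulus, rose from 273, 569 and 492 normalized counts in control to 2396, 1957 and 2008 in DHT, a log2 change of 2.31. *Runx1* and *Cebpb* rose with log2 fold changes of 0.42 and 0.32, and the *Runx1* call was lost without the intensity trend (adjusted p = 0.074, limma). *Pgr*, the progesterone receptor, fell with a log2 change of -1.42 at 8.73 to 31.6 normalized counts, and *Btc*, an EGF-like ligand, fell with -0.63. The call of *Btc* held only without DHT replicate 2 among such fits, and its adjusted p reached 0.11 by limma. *Adamts1*, one of the most abundant of the list per kb along with *Cebpb*, had a log2 change of 0.23 (adjusted p = 0.26, limma). *Tnfaip6* and *Ptx3*, whose products build the cumulus matrix with *Has2*, had adjusted p-values of 0.24 and 0.070 by limma. Over this list and the immediate-early genes together, 7 genes passed the test with all 6 libraries and 16 without control replicate 3, while the calls over all genes went from 1823 to 2103.

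Of the terminal synthases, *Ptges* fell. It encodes microsomal prostaglandin E synthase 1, the enzyme usually coupled to PTGS2 (ENSMUSG00000050737; chromosome 2, 30889471 to 30929863, minus strand). Its normalized counts were 7082, 6811 and 5863 in control and 4969, 5502 and 5288 in DHT, so that every DHT library lay below every control library, the closest pair being control replicate 3 and DHT replicate 2. The log2 change was -0.32, SE 0.07 (adjusted p = 0.019, limma). The adjusted p was 0.068 without control replicate 2, 0.064 without DHT replicate 1 and 0.069 without DHT replicate 3, all by limma, and 0.11 without the intensity trend, and the direction stayed downward when any library was left out.

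*Ptges2* (ENSMUSG00000026820; chromosome 2, 32395896 to 32405772, plus strand), a membrane-associated prostaglandin E synthase, had 735, 717 and 748 normalized counts in control cells and 829.8, 742 and 748 after DHT. *Ptges3* (ENSMUSG00000071072; chromosome 10, 128058954 to 128077272, plus strand) encodes p23, a cytosolic prostaglandin E synthase better known as a cochaperone of HSP90 and steroid receptors. It had 7398, 7819 and 7759 normalized counts in control cells and 7727, 7458 and 7272 after DHT. Neither passed the test, with adjusted p-values of 0.51 and 0.66 by limma, and their 95% intervals, -0.07 to 0.21 and -0.12 to 0.06, held changes of at most about 0.21 on the log2 scale. A processed copy, *Ptges3-ps*, was counted apart with a mean of 577 normalized counts, so the reads that the copy shares with *Ptges3* make the *Ptges3* level uncertain.

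The shares of the 4 synthase genes were compared within each library, per kb of exon, which frees them from the scaling between libraries. *Ptgds* made up 3.94%, 4.24% and 3.17% of the summed level in control and 12.1%, 15.6% and 17.9% in DHT. *Ptges* made up 32.8%, 30.7% and 28.1% in control and 22.6%, 24.1% and 23.1% in DHT. The groups did not overlap for either gene, with p = 0.1 for each by an exact permutation test, two-sided, the smallest p possible. The 4 shares of a library add up to the whole, so the higher *Ptgds* level by itself lowers the others. The lower *Ptges* share is therefore not a separate sign of a *Ptges* fall. The mean *Ptges3* share was also lower, 63.0% in control and 58.9% in DHT. The mean *Ptgds* share was 11.4 percentage points higher in DHT, and *Ptges3* stayed the largest part in every library, at 56.4% to 65.9%. The size of the *Ptgds* share depends on gene length: the difference was 7.40 points without division by length and 16.8 points with the length of the longest coding transcript. A share of transcripts says nothing of enzyme activity or of the prostaglandins made.

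**Figure D3:**
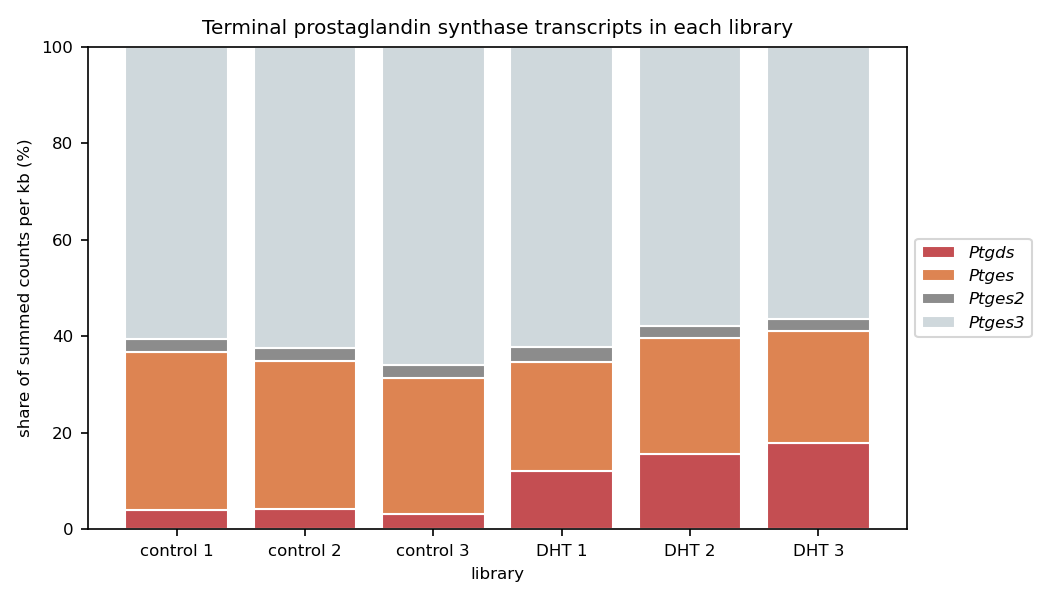
Share of *Ptgds*, *Ptges*, *Ptges2* and *Ptges3* in their summed normalized counts per kb of exon (vertical axis, percent) in each of the 6 libraries. The *Ptgds* part lies between 3.17% and 4.24% for control and between 12.1% and 17.9% for DHT.

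Among the receptors, *Ptger2* rose with the least spread. *Ptger2* (ENSMUSG00000037759; chromosome 14, 44988195 to 45003820, plus strand) encodes the EP2 receptor, which raises cyclic AMP. Its normalized counts were 826, 808 and 774 in control and 1072, 1029.8 and 1069 in DHT. The lowest DHT library lay above the highest control library, and the coefficient of variation was 3.33% in control and 2.21% in DHT. The log2 change was 0.40, SE 0.05 (adjusted p = 0.0015, limma), and it lay between 0.37 and 0.42 when any library was left out. Its exons share 144 and 246 bases with *Gm49364* and *Gm17173* on the other strand.

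*Ptger4* (ENSMUSG00000039942; chromosome 15, 5206661 to 5244187, minus strand) encodes the EP4 receptor, which also raises cyclic AMP. It had 93.0, 91.1 and 129 normalized counts in control cells and 129, 129.8 and 108 after DHT. Control replicate 3 was level with the DHT libraries, the groups overlapped, and the adjusted p was 0.42 by limma with a 95% interval of -0.14 to 0.62. Its exons share 82 bases with *Ttc33* and 1015 with the pseudogene *Gm15937*, both on the other strand, and the strand setting of the counting is not given in the sources used here, so reads of the genes on both strands may not be told apart.

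*Ptgfr* (ENSMUSG00000028036; chromosome 3, 151796502 to 151837630, minus strand) encodes the prostaglandin F2α receptor. Its normalized counts were 222, 107 and 699 in control replicates 1, 2 and 3 and 979.5, 853 and 1168 in the DHT replicates. No DHT library was as low as any control library, but control replicate 3 was 6.54 times as high as control replicate 2 and close to the lowest DHT library. The mean was 342 ± 314 in control cells and 1000.1 ± 158 after DHT (SD, n = 3). The log2 change was 1.95, SE 0.53 (adjusted p = 0.048, limma), just within the threshold. Without control replicate 3 the log2 change was 2.68 (adjusted p = 0.00030, limma), and without control replicate 2 it was 1.33 (adjusted p = 0.093, limma). Without control replicate 1 or any 1 DHT library, it lay between 1.84 and 2.06 and its adjusted p between 0.11 and 0.16 by limma. By quantile normalization the adjusted p was 0.051, and without the intensity trend it was 0.18. Its exons share 329 bases with *Gm43618* on the other strand, with the same limit.

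The genes closest in pattern to *Ptgfr*, a search added after its values were seen, were *Lhcgr*, *Pik3c2g* and *Hes1*, at distances of 0.89, 1.22 and 1.36. *Lhcgr*, the luteinizing hormone receptor, had 32.7, 12.1 and 63.9 normalized counts in control cells and 68.5, 74.2 and 95.8 after DHT, the same order of the control libraries as for *Ptgfr*. *Hes1*, a target of Notch signalling, had 337, 382 and 3230.3 in control and 3763, 4074 and 3566 in DHT. In all 3 genes, as in *Ptgfr*, control replicate 3 was the highest control library, which a choice by likeness of pattern favours. These distances were larger than those of the genes closest to *Ptgds* and *Ptgs2*.

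**Figure D4:**
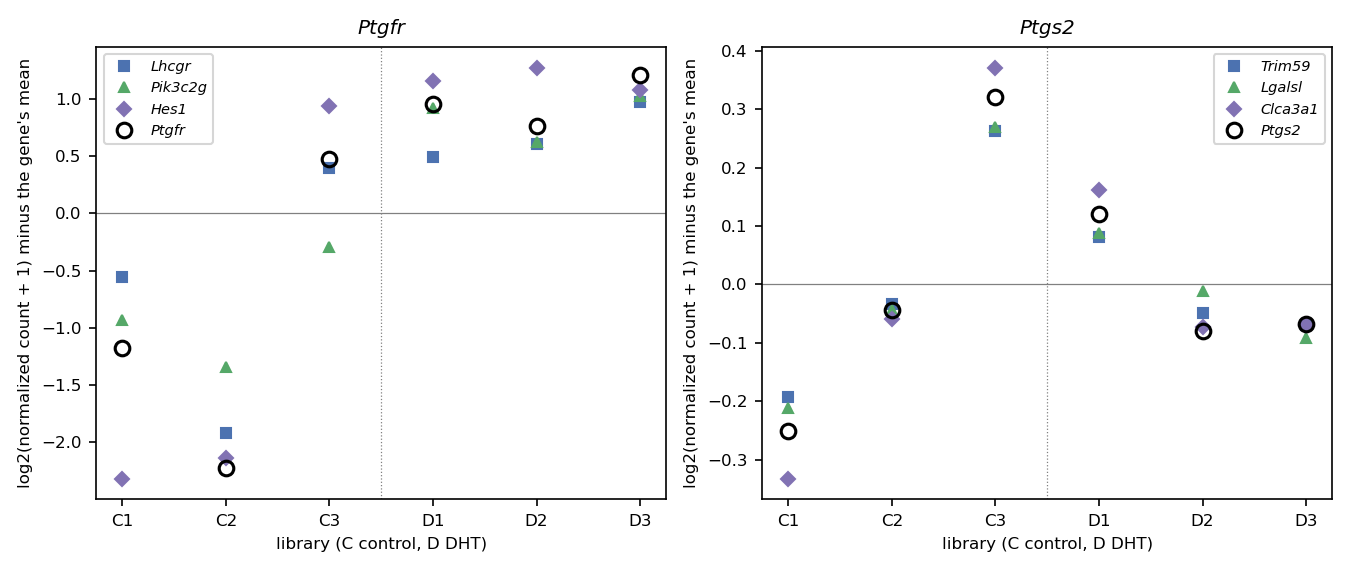
Centred log2(normalized count + 1) (vertical axis) in the 6 libraries for *Ptgfr* and *Ptgs2* (open circles) and the 3 genes closest to each. Control replicate 3 is the highest control library for all 4 genes of the *Ptgfr* panel and the highest of the 6 libraries for all 4 genes of the *Ptgs2* panel. The 3 genes beside each were picked for this likeness.

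Per kb, *Ptger2* made up 77.3%, 84.1% and 54.9% of the summed *Ptger2*, *Ptger4* and *Ptgfr* level in control and 55.7%, 57.7% and 52.2% in DHT. The *Ptgfr* share was 15.9%, 8.52% and 38.0% in control and 39.0%, 36.6% and 43.7% in DHT. Control replicate 3 lay within the range of the DHT libraries for both shares. The difference of -16.9 percentage points in the *Ptger2* share had p = 0.3 by an exact permutation test, two-sided, and was -10.9 without control replicate 2 and -25.5 without control replicate 3. The *Ptger4* share was 7.11% ± 0.30 in control cells and 5.01% ± 0.81 after DHT (SD, n = 3) without overlap. Its own normalized counts had means of 104 and 122, so the lower share went with higher *Ptger2* and *Ptgfr* levels in the sum. In control replicate 3, with the *Ptgfr* share at 38.0%, the *Ptger4* share was 7.14%.

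*Hpgd* (ENSMUSG00000031613; chromosome 8, 56294585 to 56321043, plus strand) encodes 15-hydroxyprostaglandin dehydrogenase, which inactivates prostaglandins. Its normalized counts were 604, 682 and 766 in control and 735, 763 and 702 in DHT. The DHT libraries lay within the range of the control libraries, and the log2 change was 0.11 with a 95% interval of -0.09 to 0.30 (adjusted p = 0.50, limma).

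The 10 genes covered a wide range of levels. Per kb of exon in control, the order was *Ptges3*, *Ptges*, *Ptgs2*, *Hpgd*, *Ptgds*, *Ptger2*, *Ptges2*, *Ptgfr*, *Ptger4* and *Ptgs1*, from 3454 to 10.4 normalized counts per kb. Neighbours in this order had separate ranges over the 3 control libraries, except *Ptgfr* with *Ptger4* and *Ptger4* with *Ptgs1*. In DHT, *Ptgds* moved up from the fifth to the third place, with 208 ± 36.3 per kb in control cells and 875 ± 183 after DHT (SD, n = 3), and its range overlapped that of *Ptgs2*. The other neighbours that overlapped in DHT were *Ptges2* and *Ptgfr*. By the length of the longest coding transcript, *Ptgds* moved from the fifth to the second place.

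The rest of the prostanoid pathway was read from 58 other genes, of which 37 had values and were tested. Of these 37 genes, 5 rose and 6 fell, a share of 29.7% beside 11.2% of all genes tested, and their median log2 change was -0.01. The genes were chosen with earlier results of these data known, so this share is a description and not a test. Both prostaglandin transporters of the list fell. *Slco2a1*, which takes prostaglandins up into the cell, had 1476, 1303 and 1288 normalized counts in control cells and 754, 790 and 766 after DHT, a log2 change of -0.81 (adjusted p = 0.00012, limma). *Abcc4*, which carries prostaglandins out of the cell, fell with a log2 change of -0.37 (adjusted p = 0.011, limma), or 0.081 without the intensity trend. In both genes every DHT library lay below every control library.

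Of 7 other synthases and reductases with values, *Ptgis* rose and *Akr1b8* fell, 28.6% of them beside 11.2% of all genes tested. *Ptgis*, prostacyclin synthase, had 703, 832 and 799 normalized counts in control cells and 1523, 1629.8 and 1815 after DHT, a log2 change of 1.09 (adjusted p = 0.00010, limma). *Akr1b8*, an aldose reductase family member and the most abundant of this list per kb, fell with a log2 change of -0.39. *Akr1c18*, known to break down progesterone in the corpus luteum, had an adjusted p of 0.98 by limma. Hematopoietic prostaglandin D synthase, *Hpgds*, had 19.6 to 33.6 normalized counts in the 6 libraries and a log2 change of -0.15 (adjusted p = 0.77, limma).

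Of 5 other receptor genes with values, *Ptger3*, the EP3 receptor that lowers cyclic AMP, fell from 142, 128 and 125 normalized counts to 70.5, 98.2 and 94.7. Its log2 change was -0.60 (adjusted p = 0.043, limma), a call that was lost when any library was left out, with an adjusted p of up to 0.12, and without the intensity trend, at 0.084. *Ptgfrn*, a partner protein of PTGFR and the most abundant of this list per kb, had a log2 change of 0.08 (adjusted p = 0.53, limma). Of 3 other breakdown genes, 1 passed the test, a share of 33.3%. This was *Ptgr1*, which fell with a log2 change of -0.23 (adjusted p = 0.022, limma). The call was lost without control replicate 1, DHT replicate 1 or DHT replicate 3, at adjusted p-values of 0.087 or less by limma, and without the intensity trend, at 0.092. *Zadh2*, the most abundant of these per kb, had an adjusted p of 0.14 by limma.

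Of 13 phospholipase and arachidonate supply genes with values, 3 rose and 0 fell, 23.1% of them beside 6.52% of all genes tested that rose. The list as a whole did not lean upward: 8 of the 13 had a log2 change below 0, and the median was -0.12. *Acsl4*, which activates arachidonic acid, rose with a log2 change of 0.49 from 4792 to 5325 normalized counts in control to 6709 to 7225 in DHT. *Lpcat3*, which places arachidonic acid into phospholipids, rose with 0.42. *Pla2g6* rose with 0.17 (adjusted p = 0.039, limma), a call that held in 4 of 14 alternatives and was lost when any library was left out. The cytosolic phospholipase *Pla2g4a*, which feeds the cyclooxygenases, had 2157, 2286 and 2413 normalized counts in control cells and 2233, 2075 and 1981 after DHT (adjusted p = 0.22, limma). *Anxa1*, the most abundant of the list per kb, had an adjusted p of 0.78 by limma.

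Of 7 genes of the lipoxygenase and epoxygenase arms with values, the soluble epoxide hydrolase gene *Ephx2*, the most abundant per kb, rose from between 65854 and 73603 to between 87378 and 92740.1 normalized counts, a log2 change of 0.36, which was 0.17 by quantile normalization (adjusted p = 0.048, limma). The microsomal epoxide hydrolase gene *Ephx1* fell with a log2 change of -0.48. Both passed the test, with adjusted p-values of 0.0039 and 0.00040 by limma. They are 28.6% of the 7 genes, beside 11.2% of all genes tested.

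**Figure D5:**
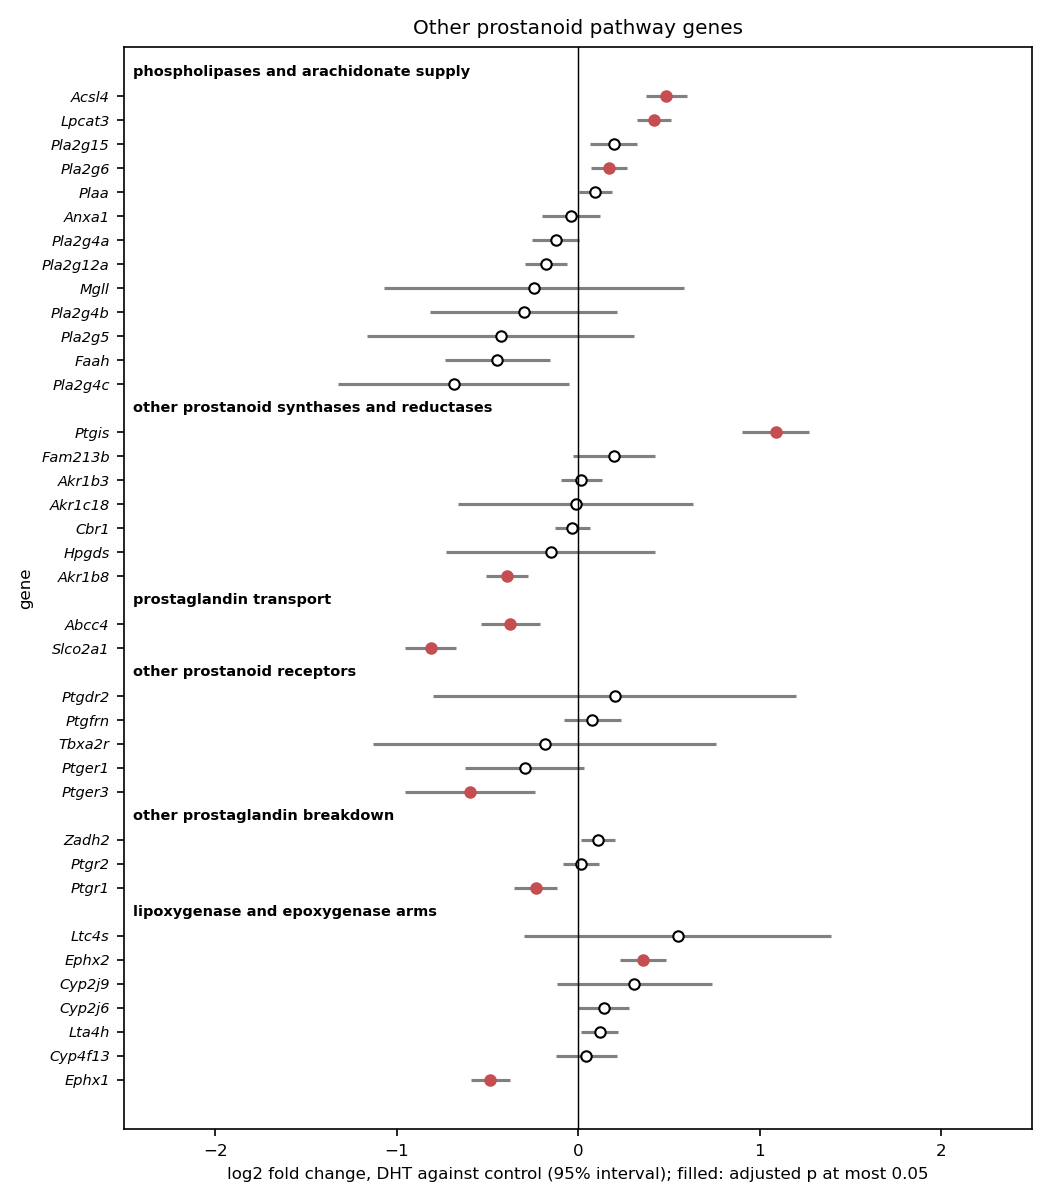
Log2 fold change between DHT and control GCs (horizontal axis, with 95% intervals) of the 37 other prostanoid pathway genes, by role, with filled points for an adjusted p of at most 0.05. *Ptgis* at 1.09 is the highest filled point and *Slco2a1* at -0.81 the lowest.

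The whole-series values that bear on these genes are few. The reads in the table numbered 36111177 to 41928585 per library. Of 12 granulosa markers, 11 had values, with summed normalized counts of 212826 to 227415 in control and 191573 to 207497 in DHT and with *Inha* and *Gja1* the most abundant per kb, and *Cyp19a1* was not analysed here. The sums of the 10 markers other than *Inha* overlapped, at 152730.0 to 176789 in control and 155576 to 175225 in DHT. Of these 11, *Hsd17b1* rose and *Foxl2*, *Inha* and *Kitl* fell, 36.4% of them beside 11.2% of all genes tested. *Foxl2* was past the threshold only without control replicate 3 when a library was left out, with its adjusted p up to 0.14 by limma. Without the intensity trend the calls of *Foxl2* and *Hsd17b1* were lost (adjusted p = 0.13 and 0.059, limma). The summed normalized counts of the other markers overlapped between groups and ranged over the 6 libraries from 157 to 251 for 5 of 10 endothelial markers with values (*Pecam1* and *Cdh5* the highest per kb), from 856 to 1416 for 8 of 12 leukocyte markers (*Lyz2* and *Cd68*), from 619 to 1430.0 for 8 surface epithelium markers (*Krt19* and *Aldh1a2*) and from 48.0 to 823 for 7 of 8 oocyte markers (*Gdf9* and *Zp3*). In the leukocyte list *Kit* had the highest normalized counts, not divided by length, in every library, at 271 to 732. Of these lists, *Erg* rose among the endothelial markers, *Csf1r* fell among the leukocyte markers, and each lost the call without DHT replicate 2 or 3, *Csf1r* also without control replicate 1, with adjusted p-values up to 0.071 and 0.10 by limma. The *Erg* call was also lost without the intensity trend (adjusted p = 0.069, limma). No surface epithelium or oocyte marker passed the test by limma, and the oocyte marker *Zp3* was at 0 in DHT replicate 2.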

How the data were processed

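Transcripts were measured by RNA-seq in 3 control and 3 DHT libraries. Per the study's methods and the submitters' processing notes, the authors trimmed reads with Trimmomatic 0.36, used STAR 2.5.2b to map them to GRCm38, and took uniquely mapped exonic reads per gene from featureCounts (Subread 1.5.2). In the deposited table the signal is this count divided by the size factor that the authors took from DESeq2. Every value was a whole multiple of 1 step per library within 1e-06 reads, from which the read numbers come. The log2 fold change, p-value and adjusted p-value columns that the authors deposited were not used, nor was their selection of genes.

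Groups came from the treatment characteristic, although the treatment protocol names DHT for every library. The labels describe extraction from whole ovary, while the cell type label and the methods name GCs. Values were tested as log2(value + 1) for the 16292 genes whose mean reached 10, in limma 3.58.1 (R 4.3.3) with its variance prior following intensity. Shares were tested by exact permutation (scipy 1.17.1). Positions and exonic lengths came from GENCODE M21 (GRCm38), and promoters from RefSeq (GRCm38.p6), where all 10 genes matched. Motifs were searched on both strands. The fit was tested on simulated data. The genes and lists were chosen with earlier results of these data known. Genes are named if they are among the 10, pass the test in a list, lead a list in level per kb, or lie closest in pattern to *Ptgds* or *Ptgs2*; the other genes named, such as *Nr4a1*, *Ptx3*, *Pla2g4a* and *Hpgds*, and those closest to *Ptgfr*, were chosen after their values were seen, as were the marker sums without *Acta2* or *Inha*.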

Additional observations from a re-analysis of the deposited data

How the results depend on the processing

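Alternatives were pseudocounts of 0.5 and 8, no filter, a mean of at least 50, quantile normalization, no intensity trend, the replicate block, each library left out in turn and, chosen after seeing the data, scaling to the same total, transcript lengths and *Ptgis* among the synthases. Tests on recovered reads and the scaling named with them in the plan were not run. *Ptgds* and *Ptger2* passed the test under all 14 alternatives, *Ptges* under 10 and *Ptgfr* under 7. The count of the 10 genes that passed, 4, was 2 without the trend and 2 to 4 with a library left out; that past both thresholds, 2, was 1 by quantile normalization and without the trend and 1 to 2 with a library left out. Of the other pathway genes, 11 passed the test and 7 did without the trend; of the ovulatory and immediate-early genes, 7 and 3, and 5 to 16 with a library left out. Over all genes, 1823 passed, against 804 without the trend, 990 with the replicate block and 937 to 2103 with a library left out (937 without DHT replicate 3, 968 without DHT replicate 2); 213 passed both thresholds, against 131 with a mean of at least 50 and 140 to 285 with a library left out (140 without DHT replicate 3). The difference in the *Ptgds* share, 11.4 points, was 7.40 without division by length and 16.8 with the longest coding transcript. The log2 fold change of *Ptgs2*, -0.02, lay between -0.15 and 0.14 with a library left out, and was 0.14, 0.02 and 0.01 without control replicate 3, DHT replicate 2 and DHT replicate 3. The cause of these differences was not tested.

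Replicate numbers were not treated as a pairing: deviations of same-numbered libraries had correlations across genes of 0.0058, 0.067 and -0.24, and control replicate 1 was closest to DHT replicate 3 (0.23). With the replicate block the 4 genes still passed, *Ptges* with an adjusted p of 0.047 by limma. Among the other genes named, the calls of *Btc*, *Csf1r*, *Foxl2*, *Ier2*, *Pla2g6*, *Ptger3* and *Ptgr1* were lost with the block.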
